A study of Mus musculus with 7 samples.

Results

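The alternative complement pathway, its anaphylatoxin receptors and surface regulators were examined as 8 genes chosen by symbol: C3, Cfb, Cfp, C3ar1, C5ar1, C5ar2, Cd55 and Cr1l. All 8 had a row among the 26130 genes of the count table, and all 8 passed the filter on low counts that left 13665 genes for testing. Polyadenylated RNA came from lung cells of mice that carried an Fth1-mScarlet reporter, which follows the ferritin heavy chain gene, together with a GFP reporter of the myeloid lysozyme gene Lyz2. Cells were sorted as GFP-positive, CD11b-positive, Ly6C-positive and Ly6G-negative, a gate for monocytes and cells derived from them, and were divided by low or high mScarlet signal. The groups were untreated Fth1-low with n = 2 libraries, LPS Fth1-low with n = 2 and LPS Fth1-high with n = 3, and the LPS mice had received 20 µg of Escherichia coli 0111:B4 lipopolysaccharide in 50 µl into the trachea 3 days earlier. The comparison mice were untreated rather than given vehicle, every group carried both reporters, and the labels give no strain, age or sex. The labels do not state whether libraries came from single mice, so the tests measure only the spread between libraries.

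Complement is a set of secreted proteins that tag surfaces for uptake by phagocytes and release small inflammatory peptides. In the alternative pathway, C3 that has bound a surface pairs with factor B to form the convertase that cleaves more C3, and properdin holds this complex together. The fragments C3a and C5a act on receptors of myeloid cells, while CD55 and, in rodents, the Crry protein encoded by Cr1l dismantle convertases on host membranes. The liver supplies most plasma complement, and macrophages and monocytes also make C3, factor B and properdin in tissue.

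The shallowest library, LPS Fth1-low replicate 1, held 637787 counts, and the other 6 were 16.4 to 43.9 times as deep, up to 27997007. In that shallow library 1 count equalled 1.67 CPM (the count over the library size in units of 1e6, scaled by the trimmed mean of M values), and ribosomal RNA genes took 19.5% of the counts against 0.705% to 8.42% elsewhere. Csf1r, a defining receptor of the monocyte lineage, was 1241 to 2678 CPM in every library, Lyz2 was 6140 to 12500.4 CPM, and the neutrophil gene Ly6g had at most 2 counts. Ccr2, a chemokine receptor of inflammatory monocytes, was 1390 and 1252 CPM in untreated, 894 and 1545 CPM in LPS Fth1-low but 360, 148 and 170 CPM in LPS Fth1-high libraries, and was called lower in the last than in LPS Fth1-low by -2.44 ± 0.39 (edgeR, adjusted p = 0.0057). Markers of other cells differed between libraries. The sum of 9 epithelial markers was 846 CPM in untreated replicate 1 and 3.36 to 133 CPM in the others, and 7 fibroblast and mesothelial markers summed to 127 CPM in LPS Fth1-low replicate 1 and to 6.62 to 57.2 CPM elsewhere. The 11 neutrophil markers summed to 412 and 449 CPM in untreated, 656 and 699 CPM in LPS Fth1-low and 375 to 409 CPM in LPS Fth1-high cells. The 6 dendritic cell markers summed to 103 and 104 CPM in untreated, 70.3 and 71.8 CPM in LPS Fth1-low and 11.2 to 17.3 CPM in LPS Fth1-high cells. RNA of sorted cells was pooled, so fewer cells of a type and less RNA per cell cannot be told apart. Levels below are CPM, group values are mean ± SD over the n given above, and differences are log2 values ± SE with an adjusted p (Benjamini-Hochberg, over all 13665 genes) from the quasi-likelihood test of edgeR.

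The genes for C3, factor B and the C3a receptor were higher in LPS Fth1-high cells than in both other groups, and C5ar1 was higher there than in untreated cells. After LPS, 3 of the 8 genes were called higher in the Fth1-high gate than in the Fth1-low gate and 0 lower, where 8.25% of all genes tested were called, 3.68% higher and 4.57% lower. The libraries of the gates did not overlap for 4 of the 8, all higher, and for 41.3% of all genes, 24.2% higher and 17.1% lower. The median difference of the 8 was 0.71, against 0.04 over all genes. Between LPS Fth1-low and untreated cells 2 of 8 rose and 0 fell, with 3.62% of all genes called, 2.99% higher and 0.629% lower, and the medians were 0.72 and -0.05. These groups did not overlap for 5 of 8, all higher, and for 39.5% of all genes, 16.3% higher and 23.2% lower. LPS Fth1-high exceeded untreated Fth1-low cells in 4 of 8 genes and fell below in 0, with 24.3% of all genes called, 12.4% higher and 11.9% lower, and the medians were 1.45 and 0.03. Here 6 genes lay wholly higher and 1, Cr1l, wholly lower, against 58.1% of all genes without overlap, 30.3% higher and 27.8% lower. The count of 0 lower in edgeR was also 0 at an unadjusted p below 0.05 and with the DESeq2 Wald test in each comparison, and these gave 4 higher each time. The last comparison joins treatment and gate, since none of the 7 libraries holds Fth1-high cells of untreated mice. All 3 comparisons share groups with one another, so their calls are not separate evidence.

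**Figure D1:**
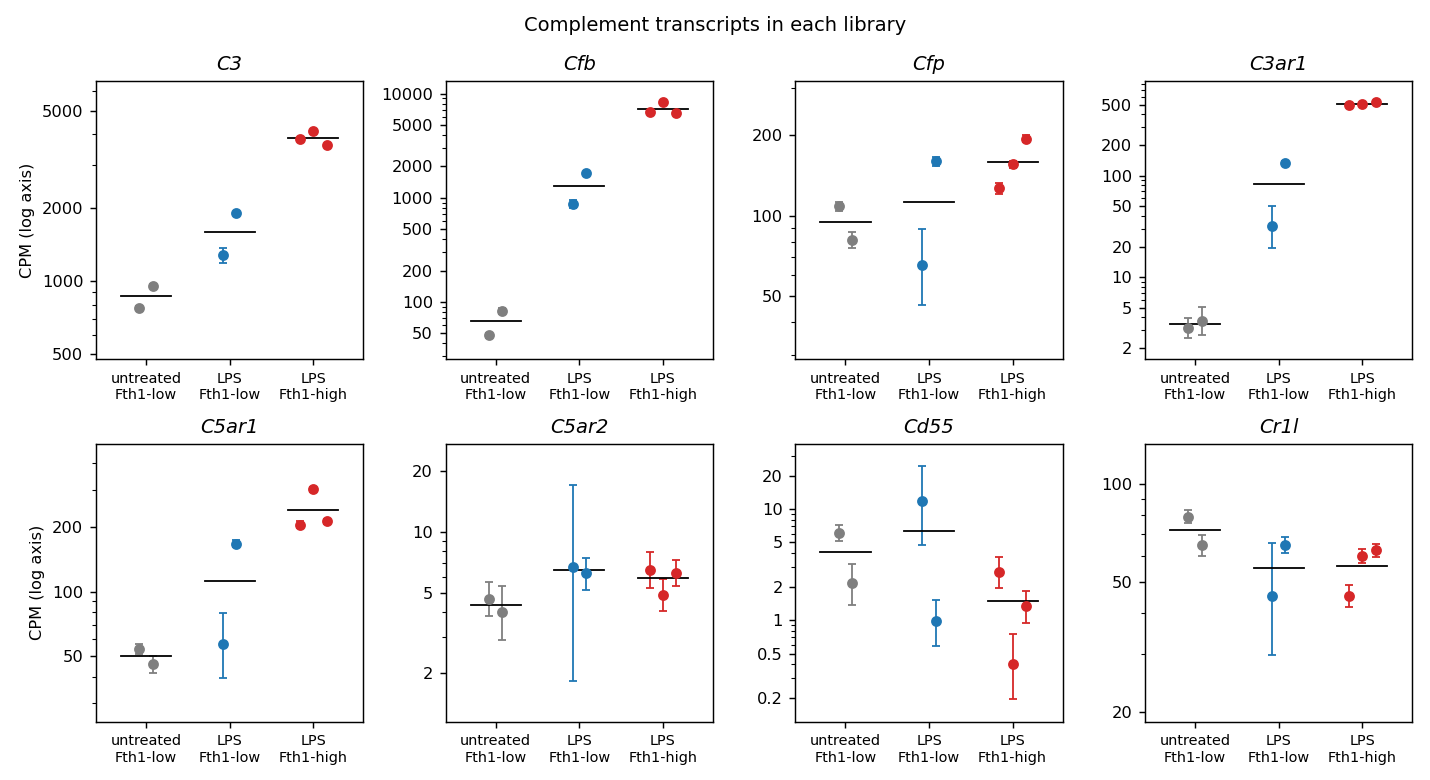
CPM of the 8 genes in each of the 7 libraries, on log axes, by group, with 95% exact Poisson intervals that cover counting error only and black lines at the group means. C3, Cfb and C3ar1 step up from untreated to LPS Fth1-low to LPS Fth1-high without overlap, whereas C5ar2, Cd55 and Cr1l overlap between the LPS gates, and the shallow LPS Fth1-low replicate 1 has the widest intervals.

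C3 encodes the central protein of the cascade, and its gene lies on chromosome 17 (57203970 to 57228136, minus strand, mm10). Untreated cells held 777 and 953 CPM of it, LPS Fth1-low cells 1277 and 1907 CPM, and LPS Fth1-high cells 3824, 4107 and 3621 CPM. All 7 libraries thus held much C3 transcript, and no library of a group overlapped one of another. LPS Fth1-high cells exceeded LPS Fth1-low cells by 1.27 ± 0.26 (adjusted p = 0.017), a 2.41-fold difference. Leaving out the shallow library gave 0.99 (adjusted p = 0.066) and leaving out LPS Fth1-high replicate 2 gave 1.20 (adjusted p = 0.059), so either ended the call. LPS Fth1-low exceeded untreated cells by 0.88 ± 0.28, which was not called (adjusted p = 0.16, 95% interval 0.26 to 1.51). It was called by DESeq2 (0.89, adjusted p = 0.0054) and after thinning all libraries to the shallowest (0.97, adjusted p = 0.032). Against untreated cells the LPS Fth1-high cells were 4.45-fold higher (2.15 ± 0.27, adjusted p = 4.3e-04). Epithelial cells and fibroblasts of the lung also transcribe C3. The epithelial sum was highest in untreated replicate 1 and the fibroblast sum in LPS Fth1-low replicate 1, and the part of RNA from these cells in the C3 level was not tested.

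The promoters of C3 and C3ar1 are shown because these genes were called higher between the LPS gates and had a RefSeq promoter entry. Each line gives the 250 bases before the start, 5′ to 3′ on the gene's own minus strand (GRCm38.p6), with the motif matches named below in capitals. The C3 stretch is chr17:57228137-57228386 and that of C3ar1 is chr6:122856158-122856407.
C3: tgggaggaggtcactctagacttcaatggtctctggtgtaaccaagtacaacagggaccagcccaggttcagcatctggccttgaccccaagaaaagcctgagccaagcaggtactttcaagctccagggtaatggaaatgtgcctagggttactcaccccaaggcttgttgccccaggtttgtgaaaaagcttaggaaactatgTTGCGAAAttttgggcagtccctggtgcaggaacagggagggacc
C3ar1: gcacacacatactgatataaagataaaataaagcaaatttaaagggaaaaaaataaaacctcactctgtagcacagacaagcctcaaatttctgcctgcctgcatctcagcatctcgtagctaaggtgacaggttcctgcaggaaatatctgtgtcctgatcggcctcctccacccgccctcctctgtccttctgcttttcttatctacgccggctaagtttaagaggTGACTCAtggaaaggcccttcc

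The C3 window held a match to the C/EBP motif TTGCNNAA that began at position -45 from the start, and C/EBP proteins are basic leucine zipper factors of myeloid and acute-phase genes. This motif, searched on both strands like the others, occurs in 9.56% of the 32851 RefSeq promoter windows of that length. The C3ar1 window held the AP-1 motif TGANTCA at position -22, which occurs in 6.75% of windows. The 2 windows shared none of the motifs named here: neither held the NF-kB consensus (7.25% of windows) or the interferon-stimulated response element (2.98%). These matches describe letters and do not locate a binding site. No overlap between motifs occurred. The C5ar1 window, of a gene called against untreated cells, held none of these motifs, and a C5ar2 window held the C/EBP motif at positions -166 and -210. The C5ar1 window (16259339 to 16259588) lies mostly inside the GENCODE gene, which reaches 16259540. It is thus not the stretch before the GENCODE start.

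Cfb, on the same chromosome (34856374 to 34862518, minus strand), encodes factor B, the serine protease of the alternative convertase. It was 48.0 and 82.7 CPM in untreated, 871 and 1742 CPM in LPS Fth1-low, and 6649, 8228 and 6491 CPM in LPS Fth1-high libraries. The groups were widely separated, and the lowest LPS library was above the highest untreated library. LPS Fth1-low cells were 20.1-fold above untreated cells (4.33 ± 0.44, adjusted p = 6.1e-04). LPS Fth1-high cells were a further 5.43-fold above LPS Fth1-low cells (2.44 ± 0.39, adjusted p = 0.0050) and 109-fold above untreated cells (6.77 ± 0.49, adjusted p = 1.6e-05). All 3 calls held under each of the 16 alternatives tried, with the LPS gate difference between 2.01 and 3.04. The GENCODE vM21 annotation has a same-strand gene, Gm20547, that covers 2246 of the 2825 exonic bases of Cfb. The count table has no row of that symbol, and how reads of such a shared stretch were assigned is not given in the sources used here.

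Cfb gained on C3 in the order of the groups. Per exonic kilobase, the ratio of Cfb to C3 counts was 0.112 and 0.158 in untreated, 1.24 and 1.66 in LPS Fth1-low, and 3.17, 3.65 and 3.26 in LPS Fth1-high libraries. The ratio did not overlap between any 2 groups. Its mean log2 difference was 1.22 between the LPS gates and 4.65 between LPS Fth1-high and untreated cells (two-sided exact permutation p = 0.1 for each, the smallest that 3 against 2 libraries allow). Between LPS Fth1-low and untreated cells it was 3.43 (exact permutation p = 0.333, the smallest for 2 against 2).

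Cfp encodes properdin, the stabiliser of the alternative convertase, which is stored and secreted by phagocytes. It was 108 and 81.0 CPM in untreated, 65.3 and 160 CPM in LPS Fth1-low, and 127, 156 and 195 CPM in LPS Fth1-high libraries. The LPS Fth1-low pair spanned nearly the whole range, with 39 counts behind the lower value. None of its differences was called. They were 0.42 between the LPS gates (95% interval -0.35 to 1.20, adjusted p = 0.54), 0.33 for LPS Fth1-low against untreated (-0.51 to 1.16, adjusted p = 0.80) and 0.75 for LPS Fth1-high against untreated (-0.02 to 1.51, adjusted p = 0.15). The first was -0.03 without LPS Fth1-low replicate 1 and 1.29 without replicate 2.

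**Figure D2:**
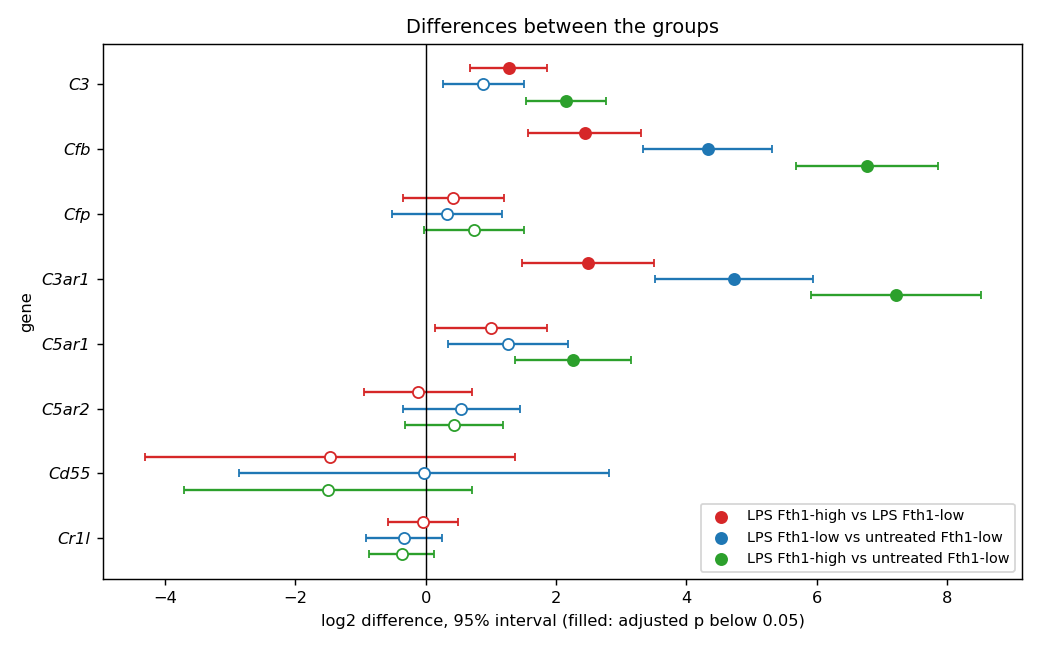
Log2 differences of the 8 genes in the 3 comparisons, with 95% intervals from edgeR's quasi-likelihood fit, filled where the adjusted p was below 0.05. Cfb and C3ar1 are filled in all 3 comparisons, C3 in the 2 that involve LPS Fth1-high cells and C5ar1 in LPS Fth1-high against untreated, and the interval of Cd55 is the widest.

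Among the receptors, C3ar1 encodes the G protein-coupled receptor for C3a and lies on chromosome 6 (122847138 to 122856161, minus strand). It was 3.16 and 3.73 CPM in untreated, 31.8 and 133 CPM in LPS Fth1-low, and 496, 505 and 524 CPM in LPS Fth1-high libraries. The LPS Fth1-high libraries lay close together, while the LPS Fth1-low pair differed more, and the lower of the pair rested on 19 counts (95% exact Poisson interval 19.2 to 49.7 CPM). The rise over untreated cells was 26.5-fold in LPS Fth1-low (4.73 ± 0.53, adjusted p = 0.0013) and 149-fold in LPS Fth1-high cells (7.22 ± 0.58, adjusted p = 3.4e-05). Between the LPS gates it was 5.61-fold (2.49 ± 0.45, adjusted p = 0.0096). The calls held under all 16 alternatives, but the size of the gate difference moved from 1.91 without LPS Fth1-low replicate 1 to 4.01 without replicate 2, and the LPS Fth1-low rise from 5.32 to 3.20. On libraries thinned to equal depth the rises over untreated cells were 6.52 and 9.03, against 4.73 and 7.22. The untreated libraries held 76 and 40 counts of C3ar1 before thinning and keep very few after it. The thinned folds thus rest on a denominator near the floor and do not measure the error at full depth.

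C5ar1 encodes the main receptor for C5a, a chemoattractant receptor of neutrophils and monocytes, on chromosome 7 (16246743 to 16259540, minus strand). It was 53.9 and 45.8 CPM in untreated, 56.9 and 168 CPM in LPS Fth1-low, and 206, 300.4 and 213 CPM in LPS Fth1-high libraries. The shallow LPS Fth1-low library was near the untreated level, and its partner was closer to the LPS Fth1-high level. LPS Fth1-high cells were 4.81-fold above untreated cells (2.26 ± 0.40, adjusted p = 0.0028), a call that held under all 16 alternatives. Between the LPS gates the difference was 1.00 ± 0.38 (adjusted p = 0.16). It became 0.49 without LPS Fth1-low replicate 1 (adjusted p = 0.37) and 2.08 without replicate 2 (adjusted p = 0.024), and it was called in 4 of 16 alternatives. LPS Fth1-low against untreated gave 1.26 ± 0.41 (adjusted p = 0.18), which became 1.78 without LPS Fth1-low replicate 1 (adjusted p = 0.018) and 0.17 without replicate 2. Neutrophils also carry C5ar1. The summed neutrophil markers, most of them Csf3r counts, were higher in both LPS Fth1-low than in both untreated libraries. They were lower in the LPS Fth1-high libraries, while Ly6g was at or near 0. Between the LPS gates edgeR called Mmp8 (-2.53, adjusted p = 0.011) and S100a9 (-2.33, adjusted p = 0.019) lower in LPS Fth1-high cells. It called S100a8 higher in LPS Fth1-low than in untreated cells (3.10, adjusted p = 0.010). No other neutrophil marker was called in the same comparison, and some uncalled ones ran the other way, such as Camp (1.58 and -1.67). The part of neutrophil RNA in the C5ar1 level was not tested.

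C5ar2, next to C5ar1 on chromosome 7 (16234585 to 16244154, minus strand), encodes the second C5a receptor, which does not couple to G proteins. It was 4.66 and 4.01 CPM in untreated, 6.70 and 6.22 CPM in LPS Fth1-low, and 6.50, 4.88 and 6.26 CPM in LPS Fth1-high libraries, so every library was at a low level. The value in LPS Fth1-low replicate 1 rested on 4 counts (95% exact Poisson interval 1.82 to 17.1 CPM). No difference was called, with -0.11 between the LPS gates (95% interval -0.94 to 0.71, adjusted p = 0.91) and 0.43 for LPS Fth1-high against untreated (-0.32 to 1.19, adjusted p = 0.39). LPS Fth1-low against untreated gave 0.55 (-0.35 to 1.45, adjusted p = 0.65). The intervals against untreated cells leave room for a rise of the size seen for C3 between the 2 Fth1-low groups. The interval between the LPS gates leaves room for a fall of that size but not for such a rise.

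The balance among receptors differed accordingly. Per exonic kilobase, C3ar1 counts stood to C5ar1 counts at 0.0350 and 0.0486 in untreated, 0.334 and 0.473 in LPS Fth1-low, and 1.44, 1.00 and 1.47 in LPS Fth1-high libraries. On this scale C3ar1 was far below C5ar1 in untreated cells and at or above it in LPS Fth1-high cells. The exonic lengths count every annotated transcript, so the ratio at which the genes are level depends on the annotation. The exact permutation p was 0.1 for LPS Fth1-high against either other group and 0.333 between the Fth1-low groups, in each case the smallest possible. The ratio of C5ar1 to C5ar2 was 16.0 and 15.8 in untreated, 11.8 and 37.3 in LPS Fth1-low, and 43.9, 85.4 and 47.2 in LPS Fth1-high libraries. Its LPS Fth1-high values were above all others (exact permutation p = 0.1 for either comparison), but the LPS Fth1-low and untreated values overlapped.

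**Figure D3:**
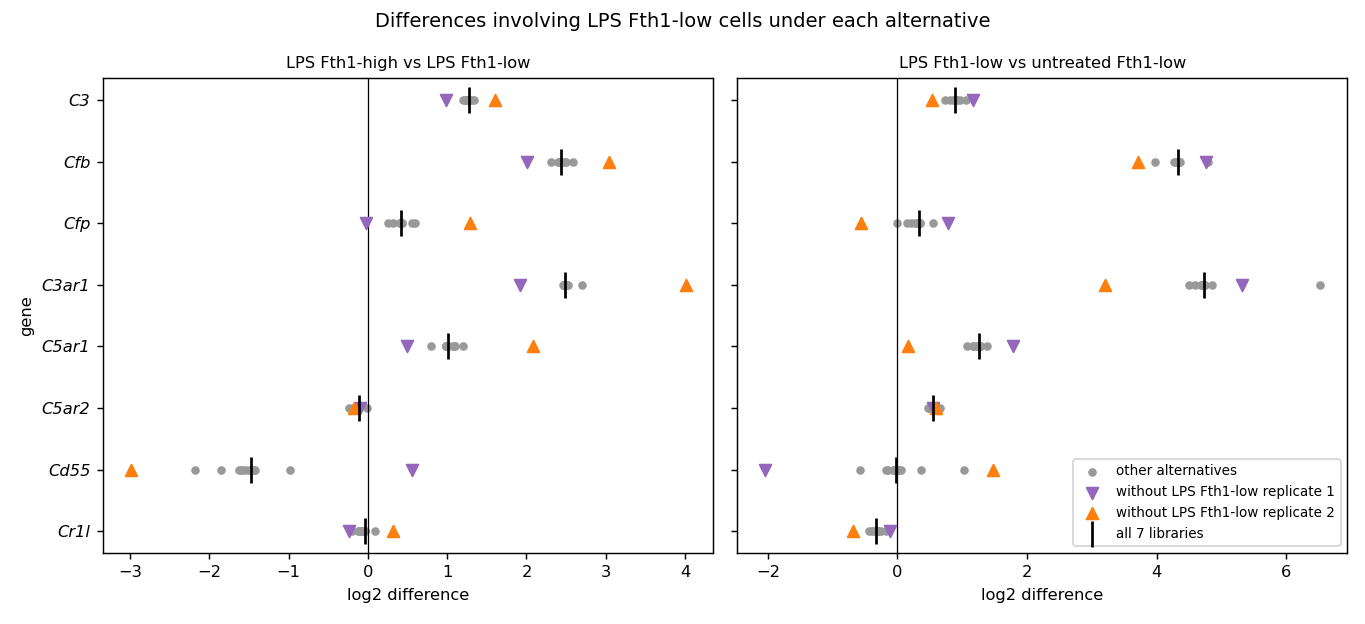
Log2 differences of the 8 genes for the 2 comparisons that involve LPS Fth1-low cells, with all 7 libraries (black bars), without either LPS Fth1-low library (triangles) and under the other alternatives (grey points). For C3, Cfb, C3ar1 and C5ar1 the gate difference is smaller without replicate 1 than without replicate 2, and against untreated cells it is larger without replicate 1 than without replicate 2.

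Of the surface regulators, Cr1l encodes Crry, the rodent membrane protein that limits C3 convertases on blood cells, on chromosome 1 (195097382 to 195131586, minus strand). It was 79.3 and 64.8 CPM in untreated, 45.2 and 64.8 CPM in LPS Fth1-low, and 45.3, 60.0 and 62.5 CPM in LPS Fth1-high libraries. The 7 libraries ran from 45.2 to 79.3 CPM, and the lowest value, in the shallow library, rested on 27 counts. Every LPS Fth1-high library lay below both untreated libraries. The difference between the LPS gates was -0.04 (95% interval -0.57 to 0.50, adjusted p = 0.96). It was -0.33 for LPS Fth1-low against untreated (-0.91 to 0.25, adjusted p = 0.68) and -0.37 for LPS Fth1-high against untreated (-0.87 to 0.13, adjusted p = 0.27). The upper bound of the last lies far under the differences of C3 and Cfb in the same comparison. The pseudogene Crry-ps shares 3.86% of the 58-base stretches of Cr1l transcripts, the length of the reads, so a small part of its reads may be uncertain.

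Cd55 encodes decay-accelerating factor, which breaks up convertases, also on chromosome 1 (130439027 to 130462744, minus strand). It was 6.08 and 2.14 CPM in untreated, 11.7 and 0.977 CPM in LPS Fth1-low, and 2.72, 0.406 and 1.34 CPM in LPS Fth1-high libraries. Replicates of each group differed several-fold, and the highest value of all, in the shallow library, rested on 7 counts (95% exact Poisson interval 4.71 to 24.1 CPM). None of the differences was called: -1.47 between the LPS gates (95% interval -4.31 to 1.36, adjusted p = 0.56), -0.03 for LPS Fth1-low against untreated (-2.87 to 2.82, adjusted p = 1.00) and -1.50 for LPS Fth1-high against untreated (-3.70 to 0.70, adjusted p = 0.31). The first became 0.55 without LPS Fth1-low replicate 1 and -2.99 without replicate 2. B cells carry Cd55 on their surface, and the 4 B cell markers summed to 65.5 and 29.4 CPM in untreated, 80.4 and 13.8 CPM in LPS Fth1-low, and 26.9, 5.57 and 16.3 CPM in LPS Fth1-high libraries. Apart from untreated replicate 2 and LPS Fth1-high replicate 1, which change places, the libraries stand in the same order by Cd55 as by this sum. Other sums shared parts of this order. That of fibroblast and mesothelial markers was also highest in LPS Fth1-low replicate 1 (127 CPM). Those of T and NK cell and of endothelial markers were also lowest in LPS Fth1-high replicate 2 (1.63 and 33.7 CPM). The part of RNA from B cells or these other cells in the Cd55 level was not tested. The paralogue Cd55b, with at most 2 counts in any library, shares 7.09% of the 58-base stretches of Cd55 transcripts.

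On the scale of CPM per exonic kilobase, which allows levels of different genes to be compared, C3 led in untreated cells at 168 ± 24.1, followed by Cfp at 54.6 ± 11.2. Cfb at 23.1 ± 8.69 and C5ar1 at 19.4 ± 2.24 overlapped there. Cr1l was at 6.96 ± 0.991, and C5ar2, Cd55 and C3ar1 were lowest with means of 1.22, 0.847 and 0.801, where Cd55 overlapped each of the others but C5ar2 lay above C3ar1. In LPS Fth1-low cells Cfb at 462 ± 218 and C3 at 310 ± 86.5 overlapped at the top, and Cfp, C5ar1 and C3ar1 followed with means of 64.8, 43.7 and 19.1, each overlapping the next. In LPS Fth1-high cells Cfb led at 2521 ± 340, above C3 at 749 ± 47.5. C3ar1 came next at 118 ± 3.35, with 1 C5ar1 library above its lowest value, and C5ar1 at 93.3 ± 20.5 and Cfp at 91.6 ± 19.6 overlapped. Cr1l at 5.40 ± 0.900, C5ar2 at 1.65 ± 0.246 and Cd55 at 0.307 ± 0.240 stayed below all others. The length of Cr1l, 10349 exonic bases, counts every annotated transcript and may understate its level per kilobase.

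Genes whose levels across the 7 libraries were most like those of the called genes were sought among the 7981 genes whose mean level reached 10 CPM. For C3 the closest was Cpd, a membrane carboxypeptidase that trims basic residues from peptide ends (Pearson r = 0.999 of log2 CPM), followed by Rrbp1, a ribosome-binding protein of the endoplasmic reticulum (0.998). For Cfb they were Cd300lf, an inhibitory lipid receptor of myeloid cells, and Ccrl2, which binds the chemoattractant chemerin (0.997 for each). C3ar1 was closest to Hcar2, the receptor for niacin and ketone bodies (0.999), and Dram1, a lysosomal membrane protein (0.998). C5ar1 was closest to Slc44a1, a choline transporter, and Snx10, a sorting nexin (0.992 for each). Cd55, which was not called, was closest to Igfbp4 (0.984), a binding protein of insulin-like growth factors, and Ablim1 (0.979), an actin-binding protein. Ccrl2 was 97.0 ± 2.90 CPM in untreated, 518 ± 171 CPM in LPS Fth1-low and 1229 ± 71.4 CPM in LPS Fth1-high cells. With 3 groups that differ in many genes, high values of r follow from the group means and carry no test. Among the members themselves, C3, Cfb and C3ar1 correlated at 0.97 to 0.99 over the 7 libraries.

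The remaining complement genes did not move as a whole. Of 14 other alternative pathway, complement receptor and surface regulator genes, 5 passed the filter and edgeR called 0 in any comparison. At an unadjusted p below 0.05, 2 were higher and 1 lower between the LPS gates and 1 was higher in each other comparison, and the DESeq2 Wald test called 2, 1 and 1 higher. The most abundant were the CR3 chains Itgam, which encodes the sort marker CD11b, and Itgb2, at 1748 ± 315 and 2148 ± 55.4 CPM in LPS Fth1-high cells. Cd46, a membrane cofactor for C3b cleavage, was at most 1.02 CPM as a group mean. Cfd, the protease that activates factor B, had no counts in any library, which allows up to 0.106 to 5.02 CPM for 3 counts in a library. Vsig4, a macrophage receptor for C3 fragments, had 2 counts in LPS Fth1-high replicate 1, none in any other library, and was not tested. Of 7 terminal pathway genes 2 passed the filter, and 0 were called by edgeR, at an unadjusted p below 0.05 or by DESeq2. Hc, which encodes C5, the source of C5a, was 15.9 CPM in untreated replicate 1 but 0.0932 CPM, from 1 count, in untreated replicate 2. It was 0 to 2.73 CPM in the LPS libraries. Untreated replicate 1 also had the highest epithelial sum (846 CPM, against 3.36 CPM in untreated replicate 2). The part of epithelial RNA in the Hc level was not tested. Itgam was called in LPS Fth1-high against untreated cells in 4 of 16 alternatives. Between the LPS gates Itgam was called in 3 of 16 and Itgb2 in 3 of 16. Without LPS Fth1-low replicate 1 the difference of Itgam in LPS Fth1-high against untreated cells was 0.73. Without LPS Fth1-low replicate 2 the gate difference of Itgb2 was 1.14.

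The classical and lectin pathway list stood apart in its counts. Of its 12 genes tested, 7 were higher and 0 lower in LPS Fth1-high than in LPS Fth1-low cells. The median of the 12 was 1.92 against 0.04 over all genes, of which 3.68% were called higher and 4.57% lower. In LPS Fth1-low cells 8 of the 12 rose against untreated, where 2.99% of all genes rose. The medians there were 3.10 and -0.05. The first count was 4 when the shallow library or LPS Fth1-high replicate 2 or 3 was left out, and the second was 5 without LPS Fth1-low replicate 2. C1qc, a chain of the C1q recognition protein, was 2.59 ± 0.424 CPM in untreated, 128 ± 76.3 CPM in LPS Fth1-low and 547 ± 134 CPM in LPS Fth1-high cells. C1ra, the C1r protease, was 4.20 ± 0.661, 17.0 ± 14.5 and 176 ± 21.5 CPM. Reads that C1ra may share with its paralogue C1rb were not measured here. Against untreated cells 10 of the 12 were higher in LPS Fth1-high cells and 0 lower, where 12.4% and 11.9% of all genes were.

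Of 9 fluid-phase inhibitors and carboxypeptidases, 4 were tested and Cpd was the gene called, higher in all 3 comparisons. In LPS Fth1-high against untreated cells DESeq2 also called 2 of them lower, and edgeR called 1 or 2 lower without untreated replicate 2 or any of LPS Fth1-low replicates 1 and 2 and LPS Fth1-high replicate 1, and 2 higher without untreated replicate 1. It was 81.3 ± 13.5 CPM in untreated, 203 ± 69.3 CPM in LPS Fth1-low and 736 ± 107 CPM in LPS Fth1-high cells, with a gate difference of 1.83 ± 0.28 (adjusted p = 0.0038). Its difference of 1.35 between the Fth1-low groups (adjusted p = 0.034) lost its call in 5 of 16 alternatives. Among these were fits without either untreated library (1.18 and 1.55), LPS Fth1-low replicate 2 (0.90) or replicate 3 of LPS Fth1-high (1.35, adjusted p = 0.059).

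**Figure D4:**
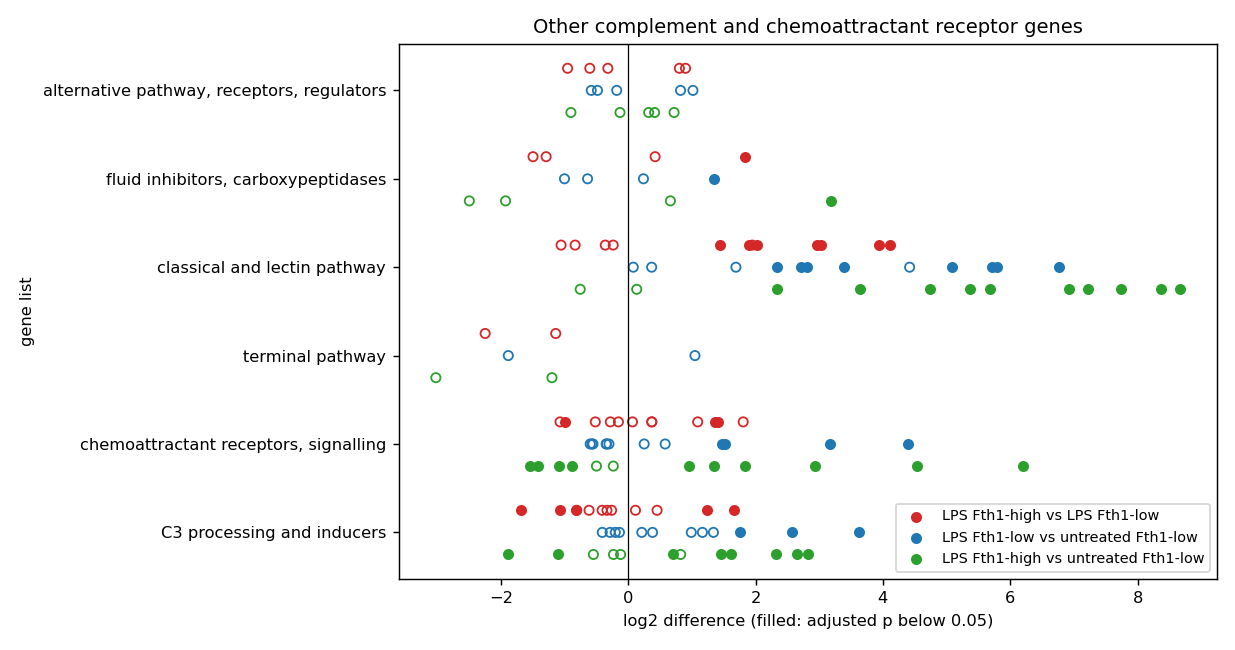
Log2 differences of the tested genes of 6 gene lists in the 3 comparisons, filled where edgeR gave an adjusted p below 0.05. The filled points of the classical and lectin pathway all lie to the right of 0, and the alternative pathway and terminal pathway lists have no filled points.

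Other chemoattractant receptors and signalling partners of the anaphylatoxin receptors moved in both directions. Of 12 tested, 2 were higher and 1 lower in LPS Fth1-high than in LPS Fth1-low cells. In LPS Fth1-low against untreated 4 rose and 0 fell, and in LPS Fth1-high against untreated 6 were higher and 4 lower. Over all genes tested, 8.25%, 3.62% and 24.3% were called in these comparisons. Cmklr1, the chemerin receptor, was 64.8 ± 12.7, 183 ± 41.1 and 493 ± 52.9 CPM in the 3 groups, with a gate difference of 1.41 ± 0.24 (adjusted p = 0.0070). Fpr2, a formyl peptide receptor, was 29.4 ± 5.06, 260 ± 101 and 681 ± 208 CPM, with a gate difference of 1.36 (adjusted p = 0.033). That call was lost in 5 of 16 alternatives, among them those without either untreated library, the shallow library (1.02) or LPS Fth1-high replicate 2 (1.07). Grk6, a kinase that desensitises G protein-coupled receptors, was 218 ± 31.5, 146 ± 27.2 and 74.8 ± 6.85 CPM, and its gate difference of -0.99 (adjusted p = 0.018) was lost when LPS Fth1-low replicate 2 (-0.76) or replicate 3 of LPS Fth1-high (-0.92) was left out. Without LPS Fth1-high replicate 2, 2 were lower between the gates. The 4 rises against untreated cells were 1 without either untreated library and 2 without LPS Fth1-low replicate 2, and the 4 falls were 2 without either untreated library.

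Among 12 genes of C3 processing and C3 induction, 2 were higher and 3 lower in LPS Fth1-high than in LPS Fth1-low cells. In LPS Fth1-low against untreated 3 rose and 0 fell, and in LPS Fth1-high against untreated 6 were higher and 2 lower. The shares called over all genes tested were 8.25%, 3.62% and 24.3%. Cebpd, a C/EBP transcription factor, was 61.4 ± 0.314, 54.1 ± 3.96 and 16.5 ± 3.09 CPM in the 3 groups, lower in LPS Fth1-high than in LPS Fth1-low cells by -1.69 ± 0.21 (adjusted p = 0.0015). Tnf, a cytokine that raises C3 transcription, was 17.8 ± 5.62, 214 ± 102 and 126 ± 11 CPM, a rise of 3.63 ± 0.37 in LPS Fth1-low over untreated cells (adjusted p = 5.9e-04). Ctsl, a lysosomal protease able to cleave C3, was 58.2 ± 15.8, 109 ± 73.5 and 365 ± 101 CPM. Its gate difference of 1.65 (adjusted p = 0.045) lost its call in 8 of 16 alternatives. Among these was the fit without any single library other than LPS Fth1-low replicate 2 and LPS Fth1-high replicate 1. Without either untreated library, the shallow library or LPS Fth1-high replicate 2 or 3, 0 genes of this list were higher between the gates, and without LPS Fth1-high replicate 2 or 3, 1 was lower. The 3 rises in LPS Fth1-low cells were 1 without untreated replicate 1, and the 2 falls against untreated cells were 1 without untreated replicate 2.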

How the data were processed

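The deposited values were raw counts per gene and library. Per the submitters' processing notes, the pipeline named DRAGEN, DESeq2 and build mm10; the sources used here do not state versions, annotation or strand setting. Per the labels' protocols, libraries were stranded, from 25 ng of RNA, with 15 PCR cycles and paired 58-base reads. 0 sample columns were unused. In R 4.3.3, edgeR 4.0.16 fitted 1 robust quasi-likelihood model of the 3 groups to all 7 libraries after filterByExpr and TMM scaling, two-sided, with genes called at a Benjamini-Hochberg adjusted p below 0.05. The biological coefficient of variation was 0.301. SE is the log2 difference over the square root of F. The procedure was tested on simulated data. Intervals on counts are exact Poisson and cover counting error only. Positions and exonic lengths are of GENCODE vM21 (GRCm38), promoters of RefSeq. The NF-kB, C/EBP, AP-1 and interferon-stimulated motifs are described. Of the 8 genes, 7 had a promoter entry; Cfb had none.

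Members and gene lists were chosen with earlier results of these data known. Named genes were the 8 members; from each list, up to 4 called genes averaging 10 CPM or more by smallest adjusted p, or the 2 most abundant where none was called; and for each member the 2 genes of highest correlation (log2 CPM with a prior count of 2). Not all genes the rule gives are named. Cd46, Cfd, Vsig4, Cd55b and the markers named fall outside that rule and were added once their values had been seen. Complement genes outside the members and lists were not analysed here, and a result for 1 list gene is not reported here. Alternatives were DESeq2 1.42.0 size factors and its Wald test, library size alone, other filters, 2-group fits, each library left out, the replicate number as a block, ribosomal RNA genes left out and libraries thinned to equal depth.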

Additional observations from a re-analysis of the deposited data

How the results depend on the processing

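Each result was recomputed under 16 alternatives, or 15 where a low gene dropped out of one. Cfb and C3ar1 kept every call in all 3 comparisons, and C3 and C5ar1 kept theirs against untreated cells (LPS Fth1-high). Genes called between LPS Fth1-low and untreated cells numbered 495, against 811 with the DESeq2 Wald test, which also called 4 rather than 2 members, and 197 to 531 with 1 library left out, the lowest without untreated replicate 1 (197) or 2 (214). Between LPS Fth1-high and untreated cells 3315 genes were called, against 2027 after thinning and 1918 to 4143 with 1 library left out. Between the LPS gates 1128 were called, against 658 to 1061 with 1 library left out. The replicate numbers were not taken as pairs, since the labels state no pairing. Deviations of same-numbered libraries of the LPS gates correlated at 0.37 and 0.18. Those with untreated libraries, which came from other mice, were below 0, down to -0.18. LPS Fth1-low replicate 2 correlated best with LPS Fth1-high replicate 3 (0.28). In a group of 2 libraries the deviations mirror each other, so these values cannot decide whether the LPS gates were paired. With the replicate number as a block, 1328, 741 and 3119 genes were called, and C5ar1 was called between the LPS gates (1.20, adjusted p = 0.00995) and in LPS Fth1-low against untreated (1.07, adjusted p = 0.0496); the block changed no other member's call. The DESeq2 Wald test also called C5ar1 in these comparisons (1.01 and 1.24), and thinning called it between the gates (1.08). Among tests of members and named list genes, 1101 repeats kept direction and side of the threshold, 42 lost a call, 25 gained one and 20 changed sign, none of the last called. Cd55 in LPS Fth1-low against untreated became 0.0259 with DESeq2 size factors, 0.36 with the DESeq2 Wald test and 0.00391 with 2 groups only, and ran from -2.05 to 1.48 with 1 library left out. With 1 library left out, gate differences ran from -2.99 to 0.55 for Cd55, -0.0264 to 1.29 for Cfp, -0.23 to 0.32 for Cr1l and -2.12 to 7.11 for Hc. In LPS Fth1-low against untreated they ran from -0.56 to 0.79 for Cfp, which was -0.00696 after thinning, from -0.52 to 0.10 for Itgam, from -0.0536 to 1.5 for Ctsl and from -10.13 to 4.34 for Hc, which was 0.97 with the replicate block. In LPS Fth1-high against untreated they ran from -4.02 to 3.31 for Hc and -2.43 to 5.60 for C7. The causes were not tested. Alternatives for the gene lists were chosen after seeing the data: 511 list counts stayed within 1.5 times and 65 did not. Low counts in LPS Fth1-low replicate 1 limit C5ar2 and Cd55.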
